A study of Mus musculus with 19 samples.

Results

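The genes of the MHC class II antigen presentation pathway described here were H2-Aa, H2-Ab1, H2-Eb1, H2-DMa, H2-DMb1, Cd74 and Ciita. They were taken as a list of 7 symbols, all of which were found among the 39179 gene identifiers of the count table. RNA was measured in mouse liver tumours, of which 10 of 13 could be matched to a column of the table. The series also holds 3 control livers and 3 high AAV control livers, whose columns were not matched and are not analysed here. All mice were male, heterozygous for Ctnnb1tm1Mmt and homozygous for the human MYC transgene Gt(ROSA)26Sortm1(MYC)Djmy. All received AAV8.TBG.PI.Cre.rBG, a virus that expresses Cre recombinase from the hepatocyte promoter TBG, with a dose of 640000000 genome copies for tumours and control livers and of 200000000000 genome copies for high AAV control livers. Recombination was therefore directed to hepatocytes, in adult mice on a mixed background per the study's methods, and the leukocytes, endothelium and stroma of a tumour came from the host. Tumours were collected at endpoint.

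MHC class II molecules are surface proteins that show peptides from ingested material to CD4+ T cells. Their chains pair in the endoplasmic reticulum with the invariant chain, travel to endosomes, and exchange a remnant of that chain for a peptide there. They are made constitutively by dendritic cells, B cells and macrophages, and other cells, hepatocytes among them, can be brought to make them by interferon gamma through the co-activator CIITA. CIITA does not bind DNA itself, but joins a complex of RFX, CREB and NF-Y proteins that sits on the X and Y boxes in front of class II genes.

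The 7 genes fall into 4 roles. H2-Aa and H2-Ab1 encode the α and β chains of the I-A molecule, and H2-Eb1 encodes the β chain of I-E. H2-DMa and H2-DMb1 encode the chains of H2-M, which edits the peptide load. Cd74 encodes the invariant chain, and Ciita the co-activator. In RefSeq on GRCm38.p6, the build named in the submitters' processing notes, 5 of the 7 lie within the MHC on chromosome 17: H2-DMa at chr17:34119693-34139101, H2-DMb1 at chr17:34153191-34160229, H2-Ab1 at chr17:34263227-34269418, H2-Aa at chr17:34282744-34287823 and H2-Eb1 at chr17:34305867-34316674. Ciita lies at chr16:10480014-10531064, and Cd74 lies outside the MHC on another chromosome.

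The promoters are shown because the X and Y boxes are where the co-activator acts, and their part in the levels below was not tested. RefSeq promoter windows of 300 bases (250 before an annotated start and 50 after it) were at hand for 4 of the 7 genes, H2-Aa, H2-Eb1, H2-DMa and H2-DMb1. They were searched on both strands for ATTGG, the core of the Y box, and for GNAAC, read here as the start of the X box, followed by ATTGG after 20 to 35 bases. The letters and the distance were chosen after these promoters had been read. ATTGG was present in 37.4% of 32851 promoters of that length, and the spaced pair in 2.67% of them. The pair was present on the gene's own strand in 3 of the 4 genes, with 28 bases between both boxes in H2-DMb1 and H2-Aa and 27 bases in H2-Eb1. The pair was in neither of the 2 windows listed for H2-DMa, chr17:34122582-34122881 and chr17:34125268-34125567. Both lie inside the span of H2-DMa given above, so the start of that span was not searched. Of the other class II genes with a window, H2-Oa, H2-Eb2 and H2-Ob held the pair, with 28, 27 and 25 bases between, and H2-DMb2 did not. These other genes had 14 to 84 counts each over the 10 tumours. Capitals mark the GNAAC and ATTGG letters in the stretches below, which read 5′ to 3′ on the strand of the gene, at chr17:34153085-34153146 (+), chr17:34287855-34287916 (−) and chr17:34305764-34305824 (+) of GRCm38.p6.
H2-DMb1: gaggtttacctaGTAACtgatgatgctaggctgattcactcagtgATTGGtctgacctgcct
H2-Aa: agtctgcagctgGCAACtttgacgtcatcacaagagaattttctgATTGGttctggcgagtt
H2-Eb1: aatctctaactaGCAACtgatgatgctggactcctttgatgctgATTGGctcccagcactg
The Y box letters began 61 bases before the annotated start in H2-DMb1, 48 bases before it in H2-Aa and 59 bases before it in H2-Eb1. Letters of this kind are a description of the windows and no test of binding in these tumours.

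The number of reads counted to genes lay between 11687034 and 36964427 in the 10 libraries. A count of 3 corresponded to 0.0812 CPM (counts of a gene per 1000000 counts) in the deepest library and to 0.257 CPM in the shallowest. All CPM values were scaled with TMM factors, and log2 values were computed from CPM after adding a prior count of 2. Each column name ends in a tag, which takes 5 values over the 10 tumours and whose first part takes 3 values (families). RMH4_5b was carried by tumour 04, RMH4_5c by tumours 05 and 06, RMH18_1d by 07 and 08, RMH35_1b by 09 and 10, and RMH35_1c by 11, 12 and 13. The meaning of the tags is not given in the labels. Should they mark mice, then tumours that share one are not independent, and in any case p-values measure only the spread between these libraries. Hepatocyte RNA was abundant in every tumour, with Alb, the gene of serum albumin, between 13016 and 22960 CPM.

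Every one of the 7 genes was detected in every tumour, and the level of the whole set ranged widely. Summed over the 7 genes, the level was lowest in tumour 05 at 58.6 CPM, had a median of 166 CPM, and was highest in tumour 11 at 451 CPM, a 7.70-fold range. Tumour 11 held the highest value of all 7 genes. Tumour 05 held the lowest value of 6 of them, the exception being Ciita, which was lowest in tumour 06. By mean rank over the 7 genes the order of the tumours was 11, then 07 and 09 level with each other, then 12, 13, 04, 06, 08, 10 and 05. Both ends of this order held tumours of the family RMH35, with tumour 10 next to last and tumour 11 first.

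**Figure D1:**
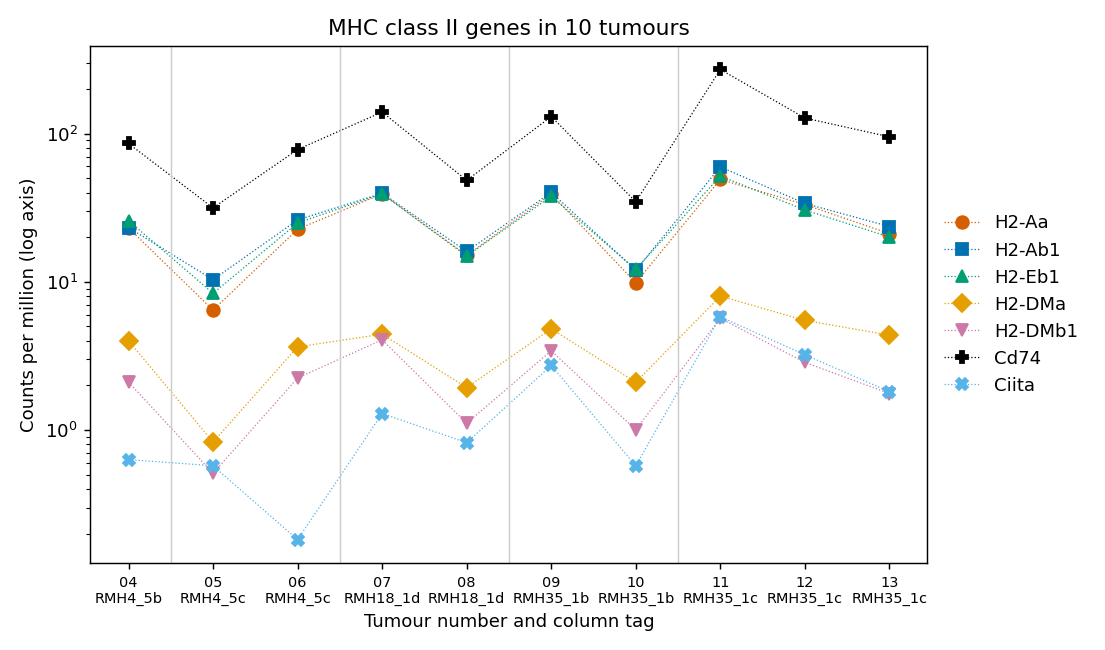
Abundance of the 7 class II genes in 10 tumours. The y axis is CPM on a log scale, the x axis is the tumour number with its column tag, each marker is 1 library, dotted lines only guide the eye and grey lines separate tags. Tumour 11 is at the top for all 7 genes, tumour 05 is at the bottom for 6 of them, and Ciita falls away from the others in tumour 06, at 0.182 CPM.

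Among the classical chains, the β chain gene H2-Ab1 ranged from 10.3 CPM in tumour 05 over a median of 24.9 CPM to 59.7 CPM in tumour 11. Its 4 highest values, 59.7, 40.1, 39.6 and 33.8 CPM, were in tumours 11, 09, 07 and 12, which carry 3 different tags. Its partner H2-Aa ranged from 6.44 to 49.1 CPM with a median of 22.9 CPM, and H2-Eb1 from 8.36 to 51.7 CPM with a median of 25.4 CPM. The SD over tumours on the log2 scale was 0.80 for H2-Ab1, 0.82 for H2-Eb1 and 0.93 for H2-Aa (n = 10), against a median of 0.33 over the 12462 genes that passed the filter on low counts.

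The chains kept close proportions to each other within a tumour. The ratio of H2-Eb1 to H2-Ab1 in CPM was 0.937 ± 0.0879 (SD, n = 10), from 0.809 in tumour 05 to 1.11 in tumour 04. The ratio of H2-Aa to H2-Ab1 was 0.891 ± 0.116 (SD, n = 10), from 0.623 in tumour 05 to 0.994 in tumour 04. Tumour 05 was thus lowest for both ratios, and for H2-Aa it stood apart from the other 9, whose lowest value was 0.821. The spans of H2-Aa and H2-Eb1 overlap by 2563 bases on opposite strands in GENCODE M39 but lie apart in RefSeq on GRCm38.p6, and neither annotation is known to be the one that was counted.

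The I-E molecule was represented by its β chain alone. H2-Ea, which encodes the α chain of I-E and is listed by RefSeq as a transcribed pseudogene, had 1 count in tumour 06 and none in the other 9 tumours. Of the other class II chains and editors, H2-Eb2, H2-Oa, H2-Ob and H2-DMb2, none passed the filter on low counts. The 5 of them together summed to between 0.191 CPM in tumour 05 and 3.62 CPM in tumour 09. H2-Ob, the β chain of the H2-M antagonist H2-O, had the highest value among them, 1.33 CPM in tumour 09. Reads from near-identical stretches of H2-DMb1 and H2-DMb2, or of H2-Eb1 and H2-Eb2, may have been lost or split in counting.

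Both genes of the peptide editor had fewer counts than the classical chains in every tumour. H2-DMa ranged from 0.829 CPM in tumour 05 over a median of 4.19 CPM to 8.01 CPM in tumour 11, which rests on 13 to 171 counts per library. H2-DMb1 ranged from 0.510 over 2.18 to 5.68 CPM, with 8 counts in its lowest library, and did not pass the filter on low counts. Per count of H2-Ab1, H2-DMa was lowest in tumour 05, at 0.0803, and highest in tumour 13, at 0.185. The ratio of H2-DMa to H2-DMb1 in CPM lay between 1.09 in tumour 07 and 2.48 in tumour 13, so that the balance of both chain genes of 1 molecule varied 2.27-fold.

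Cd74 had the most counts of the 7 genes. It ranged from 31.5 CPM in tumour 05 over a median of 90.4 CPM to 271 CPM in tumour 11, with an SD of 0.97 on the log2 scale. The number of Cd74 counts per H2-Ab1 count was 3.47 ± 0.538 (SD, n = 10). The 3 tumours with the tag RMH35_1c held the 3 highest values of this ratio, 4.54 in tumour 11, 4.03 in tumour 13 and 3.77 in tumour 12. The other 7 tumours lay between 2.89 and 3.69 and did not overlap with them. This grouping was noticed after the values were seen and was not tested.

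Ciita had the fewest counts of the 7 genes, 368 over the 10 tumours, and the largest SD. It was counted at 0.632 CPM in tumour 04, 0.574 in 05, 0.182 in 06, 1.29 in 07, 0.821 in 08, 2.73 in 09, 0.573 in 10, 5.80 in 11, 3.22 in 12 and 1.81 in 13. Its 4 highest values were those of tumours 11, 12, 09 and 13, and its lowest, in tumour 06, rests on 3 counts. The SD of Ciita over tumours was 1.32 on the log2 scale, and it did not pass the filter on low counts.

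An SD above 1 on the log2 scale, which was taken as a mark of a gene that varies strongly between tumours, was reached by 5.18% of the 12462 genes that passed the filter. It was reached by none of the 5 members that passed, H2-Aa, H2-Ab1, H2-Eb1, H2-DMa and Cd74. Over all 7 members, which include 2 that the filter dropped, it was reached by Ciita alone. The SDs of the members ranged from 0.80 for H2-Ab1 to 1.32 for Ciita. With a prior count of 0.5 in place of 2 the number of members above 1 became 2, and with the variance stabilising transformation of DESeq2 it became 0, so this count moves with how low values are treated.

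Per kilobase of exon the order of the levels was Cd74, H2-Ab1, H2-Eb1, H2-Aa, H2-DMb1, H2-DMa and Ciita. The means of CPM per kilobase were 41.4 for Cd74, 11.1 for H2-Ab1, 10.2 for H2-Eb1, 6.03 for H2-Aa, 1.47 for H2-DMb1, 0.915 for H2-DMa and 0.160 for Ciita. Cd74 exceeded H2-Ab1 by 1.81 ± 0.22 (SD) on the log2 scale per kilobase in 10 of 10 tumours, and H2-Aa exceeded H2-DMb1 by 2.02 ± 0.17. The step from H2-Ab1 to H2-Eb1 was the narrowest, 0.11 ± 0.13 on the same scale, in 8 of 10 tumours. Each of the 6 steps passed an exact two-sided sign-flip test over the 10 tumours, with adjusted p = 0.00234 for 5 steps and 0.0312 for that from H2-Ab1 to H2-Eb1. These exact p-values, adjusted over the 6 steps by the Benjamini-Hochberg method, take the tumours as independent. The order was set by the mean levels in the same tumours, so the direction of each step was given and the test bears only on its size against the spread.

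The order among similar levels depended on the length used. With the coding length in place of the union of exons, H2-Aa came before H2-Eb1 and H2-DMa before H2-DMb1. The steps from H2-Ab1 to H2-Aa (0.09 on the log2 scale, exact adjusted p = 0.186 in the sign-flip test) and from H2-Aa to H2-Eb1 (0.09, exact adjusted p = 0.155) then did not pass the test. Cd74 as the highest, Ciita as the lowest, and the I-A and I-E chains above those of H2-M held with both lengths.

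**Figure D2:**
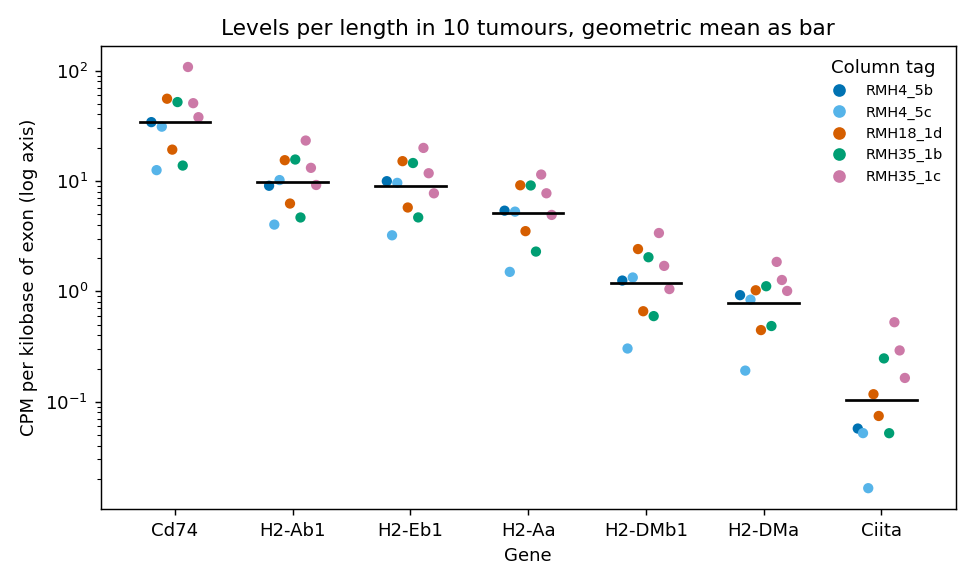
Levels of the 7 genes per kilobase of exon. The y axis is CPM per kilobase of the union of exons on a log scale, points are the 10 tumours coloured by column tag, and bars are geometric means. Cd74 reaches 108 CPM per kilobase in tumour 11 and Ciita spans 0.0165 to 0.525, with the chain genes H2-Ab1, H2-Eb1 and H2-Aa between them.

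To ask whether the 7 genes varied together, their log2 CPM was correlated across the 10 tumours in all 21 pairs. These were tested with 28 relations to marker lists as 1 family of 49, by two-sided permutation tests with 100000 resamples and Benjamini-Hochberg adjustment. All 21 pairs had a positive r, and 17 passed by Pearson's r and 20 by Spearman's rho. The 15 pairs that do not involve Ciita all passed by both measures, with r between 0.923 and 0.996 and a median of 0.966.

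The closest pair was H2-Eb1 with H2-DMb1, at r = 0.996 and rho = 0.988 (n = 10, permutation test, adjusted p = 5.44e-05 and 0.000163). H2-Aa with H2-Eb1 had r = 0.991 and rho = 1.00 with the same adjusted p-values from the permutation test, so the 10 tumours stood in the same order for both genes. H2-Ab1 with Cd74, which lie on different chromosomes, had r = 0.987 and rho = 0.952 (n = 10, permutation test, adjusted p = 8.91e-05 and 0.000637). After dropping the 2 tumours whose first gene lay farthest from its median, these 15 pairs kept r between 0.865 and 0.994. With values centred on the mean of the tag family, r was between 0.923 and 0.996.

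The tumours were also split by Rpph1, an RNA without a poly(A) tail. Its level fell into a low side of 7 tumours (0.756 to 4.28 CPM) and a high side of 3 tumours, 05, 06 and 07 (30.04 to 51.8 CPM). Whether these sides mark a batch is not known. Within the 7 tumours of the low side, r of the 15 pairs was between 0.927 and 0.993. The high side held too few tumours for a value of its own.

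With the other 6 genes Ciita had lower values of r than these 6 had with each other, a difference that was not tested. Its r was 0.740 with Cd74, 0.686 with H2-Ab1, 0.648 with H2-Aa, 0.636 with H2-DMa, 0.622 with H2-DMb1 and 0.617 with H2-Eb1. The first and second of these passed by r, with adjusted p = 0.0208 and 0.0384 in the permutation test over 10 tumours, and 5 of the 6 passed by rho, the exception being H2-DMb1 at rho = 0.661. Without the 2 farthest tumours, 05 and 11, r with Cd74 was 0.588 and r with H2-Ab1 was 0.515, and neither passed the exact permutation test over 8 tumours (unadjusted p = 0.129 and 0.193). Within the 7 tumours of the low Rpph1 side, which leaves out tumours 05, 06 and 07 and keeps 11, r of Ciita was 0.908 with Cd74 and 0.917 with H2-Ab1 (exact permutation test, unadjusted p = 0.00357 and 0.00496). Neither r thus passed without tumours 05 and 11, though both stayed positive. The higher values on the low Rpph1 side come without tumour 06, where Ciita rests on 3 counts. With the 2 farthest tumours of each other gene left out, r of Ciita was 0.770 with H2-DMa (without 05 and 08) and 0.674 with H2-Aa (without 05 and 10). With H2-Eb1 and H2-DMb1 it was 0.575 and 0.433. Of these, only that with H2-DMa had an unadjusted p below 0.05 in the exact permutation test, at 0.0232. Centred on tag families, r was 0.72 with Cd74 and 0.66 with H2-Ab1 (exact permutation test within families, unadjusted p = 0.0493 and 0.0799), and neither passed after adjustment.

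Tumour 06 lay farthest from the common line. In that tumour H2-Ab1 was at 26.2 CPM, with 4 tumours above it, while Ciita was at its lowest, and the ratio of Ciita to H2-Ab1 was 0.00696. In the other 9 tumours this ratio ranged from 0.0272 in tumour 04 to 0.0973 in tumour 11. Without tumour 06 all 21 pairs passed, with r of Ciita with H2-Aa at 0.81 and with H2-Eb1 at 0.79. The same ratio placed the 3 tumours with the tag RMH35_1c highest, at 0.0973, 0.0954 and 0.0768, above the other 7, of which the highest was tumour 09 at 0.0679. This second grouping by tag was also seen after the fact and not tested.

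**Figure D3:**
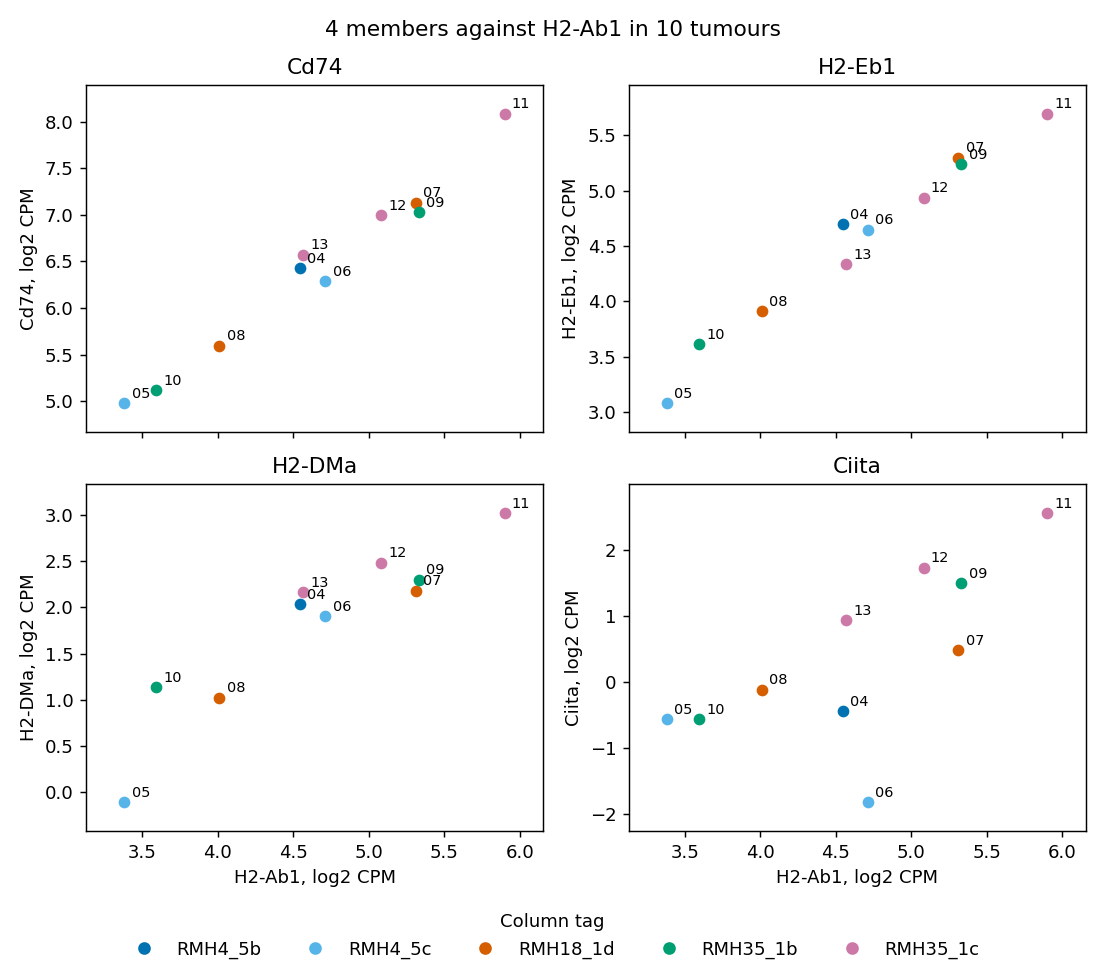
Cd74, H2-Eb1, H2-DMa and Ciita against H2-Ab1. Axes give log2 CPM after a prior count of 2, each point is 1 of 10 tumours with its number, and colours are column tags. Cd74 (r = 0.987), H2-Eb1 (r = 0.987) and H2-DMa (r = 0.923) lie close to a line, whereas Ciita (r = 0.686) scatters, with tumour 06 far below and tumours 11, 12, 09 and 13 above.

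Whether the levels differed between column tags was tested across all genes. Between the 3 families, the quasi-likelihood F-test of edgeR called 1 of 12462 genes (0.00802%) at an adjusted p below 0.05 and none of the 5 members tested, whose Benjamini-Hochberg adjusted p-values ran from 0.596 for Cd74 to 0.754 for H2-Eb1. At an unadjusted p below 0.05 the same test found 1740 genes and 0 of the 5 members. The likelihood ratio test of DESeq2 called 508 of 11919 genes (4.26%) and 0 of the 5 members. Between the 5 tags, edgeR called 53 genes (0.425%) and again 0 of the 5 members, and at an unadjusted p below 0.05 it found 1863 genes and 0 of the 5 members. Tumours of 1 tag could lie as far apart as 09 and 10, with 40.1 and 12.0 CPM of H2-Ab1.

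Ciita could be tested only without the filter on low counts. A test of the 5 tags in edgeR without it, chosen after the data were seen, gave Ciita an adjusted p of 0.0304 and called none of the other 6 members, of which Cd74 came nearest with an adjusted p of 0.247. It called 1188 of 24682 genes (4.81%), against 53 with the filter, and 1 of 7 members stands beside that share. At an unadjusted p below 0.05 it found 3450 of 24682 genes, against 1863 of 12462 with the filter. Between the 3 families without the filter, the adjusted p of Ciita in edgeR was 0.230. By tag, Ciita was at 1.81 to 5.80 CPM in the 3 tumours of RMH35_1c, at 0.182 and 0.574 CPM in the pair of RMH4_5c, and at 0.573 and 2.73 CPM in the pair of RMH35_1b.

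Of the 14 listed regulators of Ciita and of class II promoters, all passed the filter and most were steady. The median SD of their log2 CPM was 0.30, close to the 0.33 of all genes, and none exceeded 1. Among the proteins that sit on the X and Y boxes, Rfx5 ranged from 12.1 to 26.1 CPM, Rfxap from 12.3 to 40.6, Rfxank from 12.5 to 24.2 and Nfyb from 20.5 to 36.3. The steadiest was Nfyc (SD 0.21), a subunit of NF-Y, between 8.79 and 13.6 CPM. The most variable was Spi1 (SD 0.67), the myeloid and B cell factor PU.1, from 2.93 CPM in tumour 05 to 9.59 CPM in tumour 06. Between the 5 tags edgeR called 0 of the 14, of which 2 had an unadjusted p under 0.05, beside 1863 of all 12462 genes. Where no filter on low counts was used it called 2 of the 14, Ifngr1 and Irf1, beside 4.81% of all genes.

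Ifng itself was hardly counted, with 4 reads in all, in tumours 12 and 13. The 8 other genes of the interferon gamma list passed the filter and had a median SD of 1.08, with 5 of 8 above 1, beside 5.18% of all genes that passed. The most variable was Cxcl9 (SD 1.63), a chemokine for T cells, from 1.28 CPM in tumour 05 up to 29.3 CPM in tumour 11, and the least variable was Irf1 (SD 0.55), a transcription factor for interferon targets. Igtp, a GTPase of the interferon response, reached 181 CPM in tumour 11, 151 in tumour 12 and 184 in tumour 13 and did not exceed 42.7 CPM elsewhere. Between the 5 tags edgeR called 2 of the 8 genes tested, Igtp (adjusted p = 0.00545) and Cxcl9 (adjusted p = 0.0145), beside 0.425% of all genes. Without the filter it called 6 of 9, beside 4.81% of all genes, and the likelihood ratio test of DESeq2 between families called Cxcl10.

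Class I presentation genes also had tumours 11, 12 and 13 at the top of their sum, at 3175, 3064 and 2146 CPM against 1234 to 1841 CPM in the others. In this list of 9 genes the median SD was 0.59 and 3 exceeded 1. Nlrc5, the co-activator of class I genes, was the most variable (SD 1.27), and Tapbp, which loads class I molecules, the least (SD 0.38). None of the 9 was called by edgeR between the 5 tags, and 7 of 9 had an unadjusted p below 0.05, beside 1863 of the 12462 genes tested. Without the filter edgeR called 5 of the 9 between tags (4.81% of all genes), Psmb8, Psmb9, Tap1, Tap2 and Nlrc5, and the likelihood ratio test of DESeq2 between families called Tap1, Psmb8 and Psmb9.

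The class II genes did not follow that division. The sums of the 7 members in tumours 11, 12 and 13 were 451, 236 and 168 CPM, and those of tumours 07 and 09, at 268 and 258 CPM, lay above 2 of them. In tumour 07 the interferon gamma list was at its lowest sum, 76.3 CPM, while H2-Ab1 was at 39.6 CPM, below only tumours 09 and 11. Tumours 07 and 09 held the highest sums of the 3 general leukocyte genes, at 75.7 and 69.4 CPM. Tumour 11, the highest for class II genes, had a leukocyte sum of 51.6 CPM, below the 56.3 and 54.7 CPM of tumours 04 and 06, whose class II sums were 165 and 158 CPM. Most of this sum was Laptm5, at 33.0 CPM in tumour 11 against 42.6 and 40.7 CPM in tumours 04 and 06. The other genes of the list went the other way, Ptprc at 8.64 against 6.25 and 5.95 CPM and Coro1a at 9.90 against 7.44 and 8.01 CPM. H2-Ab1 per count of Ptprc, the common leukocyte antigen CD45, was 4.83 ± 1.37 (SD, n = 10), and its highest values were 7.39 in tumour 12 and 6.91 in tumour 11. Ciita per count of Ptprc ranged 23.0-fold, from 0.0306 in tumour 06 to 0.705 in tumour 12, with 0.672 in tumour 11 and 0.368 in tumour 13 next below and the other 7 tumours at or below 0.270.

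**Figure D4:**
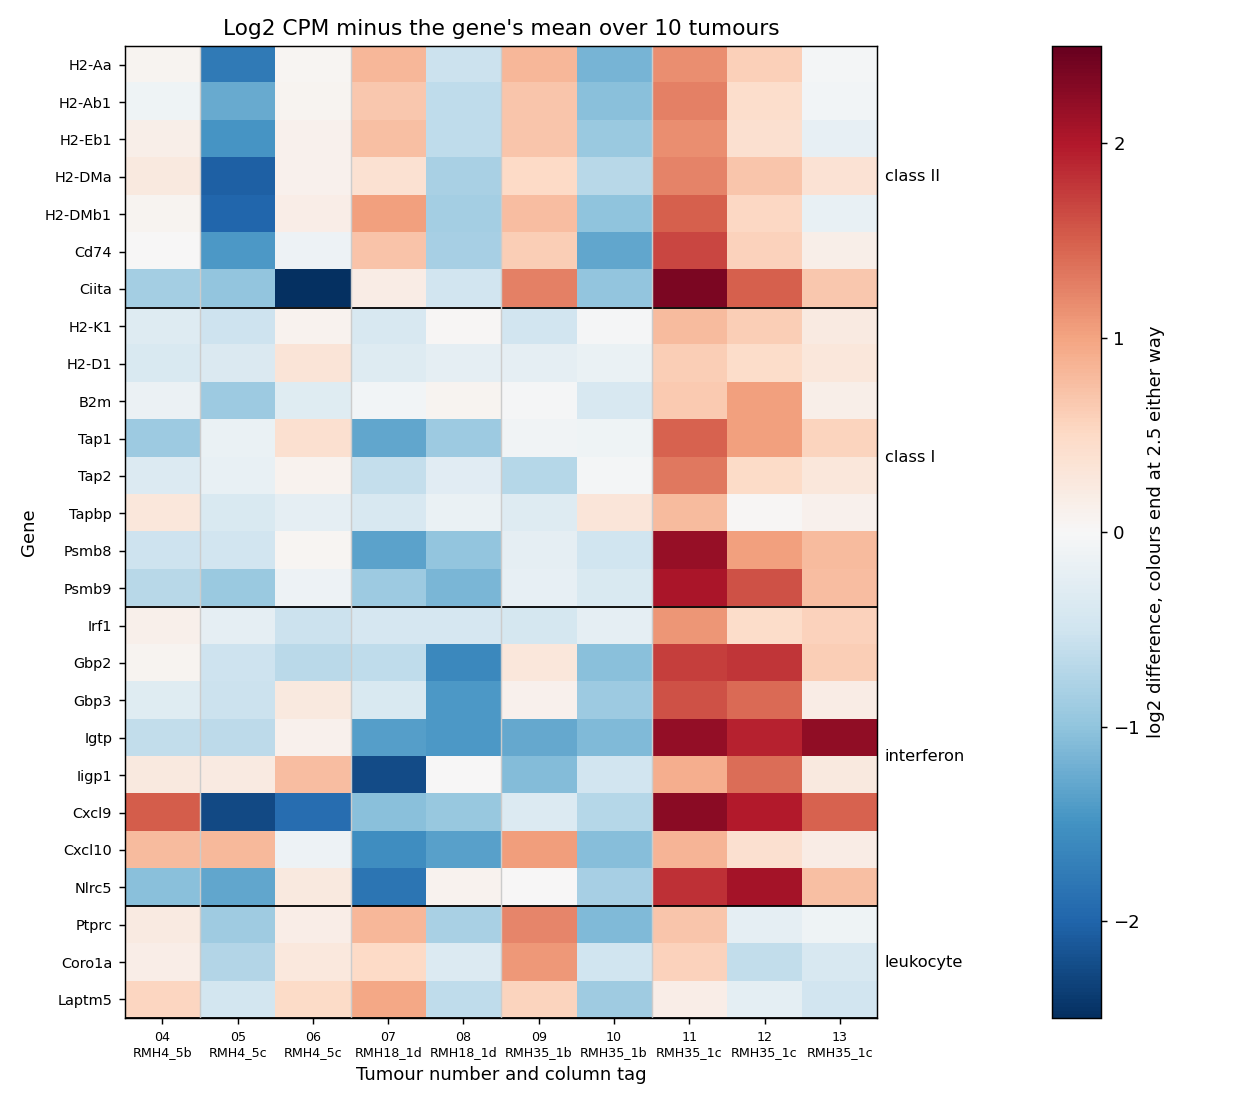
Class II, class I, interferon and leukocyte genes by tumour. Each cell is log2 CPM minus the mean of that gene over the 10 tumours, columns are tumours with their tag and colours end at 2.5 either way. Class I and interferon genes are mostly red in tumours 11, 12 and 13. Class II genes are red in tumours 07, 09, 11 and 12 and lie on both sides of their means in tumour 13. Tumours 07 and 09 had the highest sums of the 3 leukocyte genes.

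Of 11 listed genes of endosomal processing, 10 passed the filter, and their median SD was 0.35 with none above 1, beside a median of 0.90 for the 5 class II genes that passed. This difference was not tested. Ctsd, an aspartic protease of lysosomes, was the steadiest (SD 0.19, 602 to 921 CPM), and Cd63, a tetraspanin of late endosomes, the most variable (SD 0.83), at 13.5 CPM in tumour 12 and at least 58.9 CPM elsewhere. Ctss, the protease that trims the invariant chain in professional antigen presenting cells, ranged from 10.1 CPM in tumour 05 to 38.8 CPM in tumour 09. Genes of costimulation and of receptors for class II molecules had few counts. Of 5 listed, Cd86 (SD 0.78, 0.812 to 4.69 CPM) and Lag3 (SD 0.60, 0.668 to 2.88 CPM) passed the filter, and Cd80, Cd40 and Cd4 did not. With the filter, none of the genes of both lists was called between the 5 tags by edgeR or between families by edgeR or DESeq2, and at an unadjusted p below 0.05 edgeR found 1 of 10 and 1 of 2 between tags, beside the same 1863 of 12462. Without the filter edgeR called 1 of 11 endosomal genes between tags, Lgmn, a protease of lysosomes, and 0 of the 5 genes of costimulation and receptors, beside 4.81% of all genes.

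Markers of the leukocytes that make class II molecules, and of the T cells that read them, were measured beside them. Macrophage markers had the highest sum, from 122 CPM in tumour 05 up to 465 CPM in tumour 06, and 6 of 10 passed the filter, with Cd5l the most variable (SD 1.47) and C1qa the least (SD 0.56). Dendritic cell markers summed to 3.00 to 14.7 CPM (2 of 8 passed, Itgax with an SD of 0.84 and Zbtb46 with 0.68), B cell markers to 1.02 to 8.86 CPM and T cell markers to 1.19 to 4.92 CPM (0 of 7 passed in each). Ms4a1, from the B cell list, had no count in 2 tumours, and Cd3d and Cd8a, from the T cell list, had none in 2 and 3 tumours. In bulk tissue, fewer cells of a type and less RNA per cell cannot be told apart, and neither can class II RNA of leukocytes and of hepatocytes. The part of these cells in the class II levels was not tested.

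The mean log2 CPM of each list was correlated with each member. Of the 28 relations, 23 passed by r and 20 by rho. With macrophage markers r was 0.821 for H2-Aa, 0.753 for H2-Ab1, 0.663 for Cd74 and 0.228 for Ciita. By r 6 of 7 members passed and by rho 4 (permutation tests, n = 10, adjusted over 49). With dendritic cell markers and with B cell markers 5 of 7 passed by r in each, with r of up to 0.781 and 0.787, and 4 and 5 passed by rho. With T cell markers all 7 passed, with r from 0.808 for H2-DMa to 0.913 for Cd74, and with Ciita at 0.868. Among the other genes that passed the filter on low counts, r was at least as high as in the lowest member that passed for 2.43% with macrophage, 2.96% with dendritic cell, 3.38% with B cell and 0.273% with T cell markers.

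Tumour 05, the lowest for 6 of the class II genes, was also the lowest for the mean log2 CPM of each of the 4 marker lists, by a small margin for B cell markers (−2.24, against −2.19 in tumour 10) and T cell markers (−2.13, against −2.10 in tumour 10). Without tumour 05, 7 of 28 relations passed after adjustment, all of them with T cell markers, and the numbers with macrophage, dendritic cell and B cell markers fell to 0. Within the low side of the Rpph1 split, which leaves out tumours 05, 06 and 07, 7 of 28 passed as well. Centred on tag families, 15 of 28 passed. The size of r without the 2 farthest tumours differed between genes, for which the tumours left out also differed. Without tumours 05 and 11, which lay farthest from the median of H2-Ab1, its r was 0.780 with B cell, 0.738 with dendritic cell, 0.738 with macrophage and 0.835 with T cell markers, against 0.765, 0.713, 0.753 and 0.901 over all 10 tumours. In the exact permutation test over these 8 tumours the unadjusted p-values were 0.0256, 0.0331, 0.0376 and 0.00990. Without tumours 05 and 10, which lay farthest from the median of H2-Aa, r of H2-Aa was 0.599, 0.578, 0.524 and 0.893 with the same lists, against 0.787, 0.780, 0.821 and 0.866 over all 10. With B cell markers, r was 0.585 for H2-Eb1 without 05 and 10, and 0.778 for H2-DMb1 and 0.675 for Cd74 without 05 and 11. The relation with T cell markers held in each of the 10 fits without 1 tumour, for all 7 members, but the list rests on few reads, with at most 18 counts of Cd8a and 10 of Cd3d in any tumour.

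**Figure D5:**
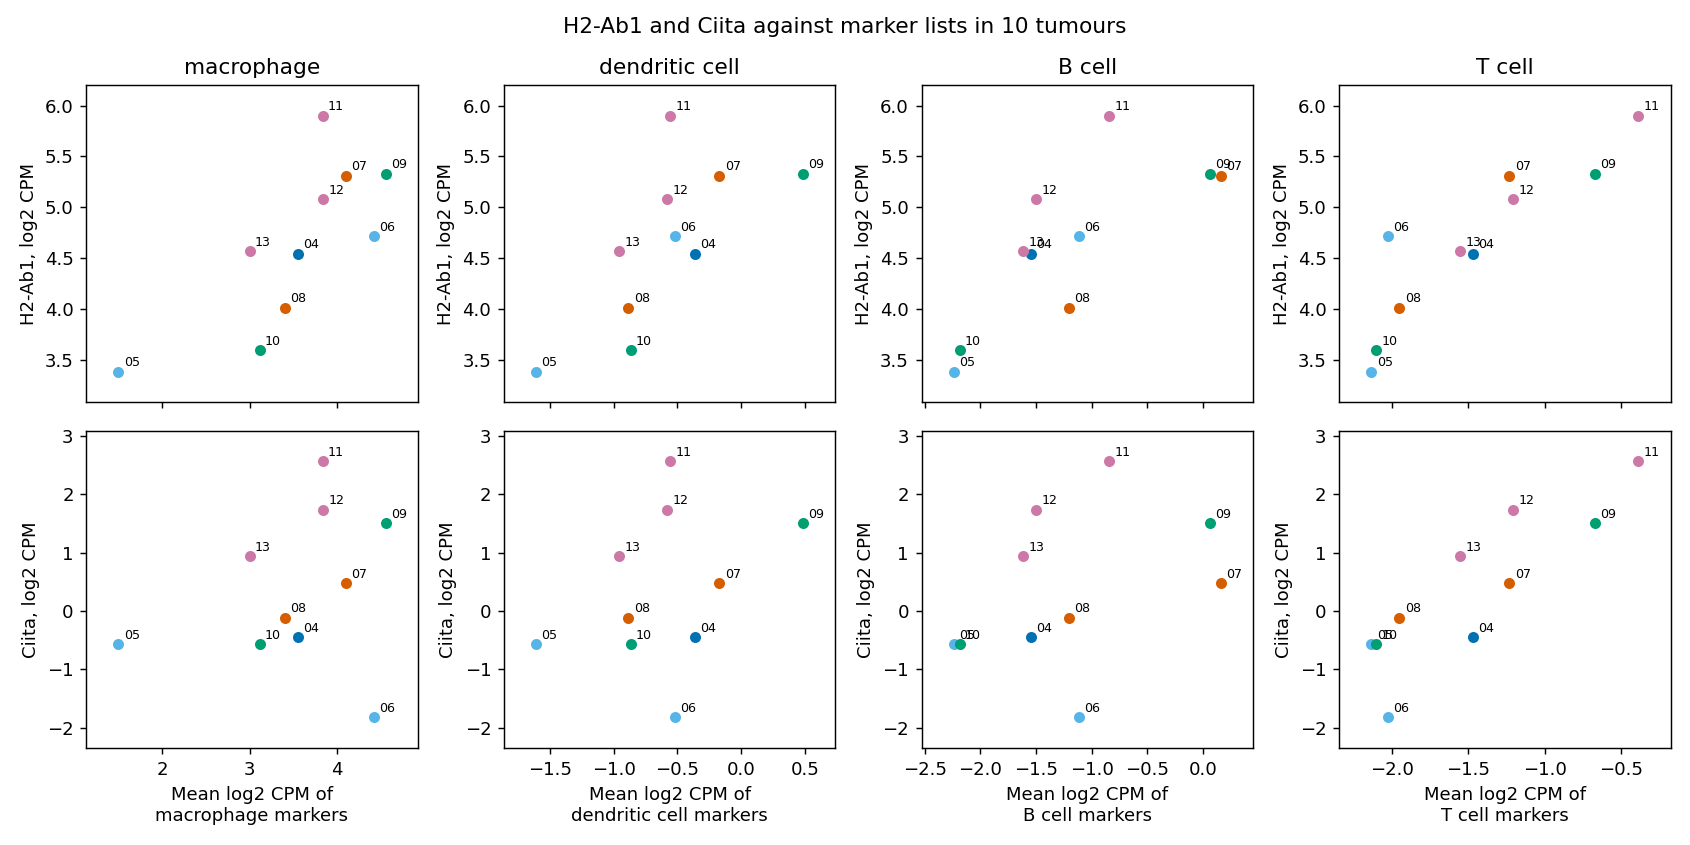
H2-Ab1 (upper row) and Ciita (lower row) against 4 marker lists. The x axes are the mean log2 CPM of the markers, the y axes log2 CPM of the gene, points are the 10 tumours with their numbers and colours are column tags as in the plot against H2-Ab1. Tumour 05 stands alone at the low end for macrophage and dendritic cell markers, and for T cell markers both genes lie along a rising line (r = 0.901 and 0.868).

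Markers of the other cells of a liver were read in the same way and fell into another order. The 3 general leukocyte genes all passed the filter, with SDs from 0.60 for Coro1a to 0.76 for Ptprc. Endothelial markers (5 of 6 passed, median SD 1.19) summed to 38.4 to 44.4 CPM in tumours 10 to 13 and to 87.7 to 325 CPM in the other 6, with Cdh5 the most variable (SD 1.47) and Stab2 the least (SD 0.84). Stellate cell and fibroblast markers (6 of 6 passed, median SD 0.99) summed to between 192 CPM in tumour 12 and 1331 CPM in tumour 09, with SDs from 0.84 for Reln to 1.16 for Col1a1. The low endothelial and stromal sums thus included tumours 11 and 12, where class II genes were high, and tumour 10, where they were low. Bile duct markers (2 of 5 passed, Krt19 with an SD of 1.76 and Spp1 with 1.52) summed to 13.6 to 145 CPM, monocyte and neutrophil markers (0 of 6 passed) to 1.89 to 29.1 CPM. Hepatocyte markers (6 of 6 passed, median SD 0.44) had SDs from 0.18 for Hnf4a to 1.97 for Serpina1c. With the filter, none of the genes tested was called by edgeR between families or tags. At an unadjusted p below 0.05 it found 3 of 5 endothelial and 1 of 6 stellate cell and fibroblast genes between tags, beside 1863 of 12462 genes in all, and the likelihood ratio test of DESeq2 called Kdr and Stab2. Without the filter edgeR called between tags the endothelial genes Pecam1, Stab2, Kdr and Cdh5 (4 of 6), the fibroblast gene Col1a1 (1 of 6) and the neutrophil genes S100a8 and S100a9 (2 of 6), beside 4.81% of all genes.

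Across the 12462 genes that passed the filter, those most like the class II genes were ranked by r with the mean log2 CPM of the 5 members that passed, as a description over the same 10 tumours with no test. The 10 highest were Gm13675 (r = 0.966), Ostm1 (0.950), Vti1a (0.939), Ikzf1 (0.937), Cx3cr1 (0.930), Ccar1 (0.920), Pld4 (0.917), Pik3cd (0.914), Themis2 (0.908) and Myo1g (0.907). Ikzf1 is a transcription factor of lymphoid cells, Cx3cr1 a chemokine receptor of monocytes and macrophages, and Pik3cd the leukocyte form of the PI 3-kinase catalytic subunit. Gm13675 is a processed pseudogene, and Vti1a, a SNARE protein, varied little (SD 0.11, 14.0 to 17.5 CPM). The 5 lowest were Bcl2l13 (−0.926), ENSMUSG00000097810 (−0.924), Sik3 (−0.919), Ech1 (−0.914) and Zfp628 (−0.908). Ech1, an enzyme of fatty acid oxidation in peroxisomes and mitochondria, ranged from 441 to 766 CPM.

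Over all genes that passed and are not members, the median r with the same mean was −0.01. It was 0.74 for the 6 macrophage markers tested, 0.71 for the 3 general leukocyte genes, with Ptprc at 0.857, 0.62 for the 2 dendritic cell markers, 0.49 for the 2 genes of costimulation and class II receptors, 0.13 for the 2 bile duct markers, and 0.50 for the 9 class I genes and 0.48 for the 8 interferon genes. It was 0.19 for the 14 regulators, 0.15 for the 10 genes of endosomal processing, with Ctss at 0.809, 0.32 for the 6 hepatocyte markers, 0.23 for the 6 stellate cell and fibroblast markers and 0.02 for the 5 endothelial markers. No B cell, T cell or monocyte and neutrophil marker passed the filter, so these lists have no value here, and the relation with T cell markers given above has no counterpart. All these values come from the same libraries and share their depth and scaling.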

How the data were processed

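RNA of mouse liver tumours was extracted with Trizol and made into libraries with a stranded mRNA kit, per the labels. The authors deposited 1 table of counts per gene, not normalised, with 39179 gene identifiers, 5 summary lines and 19 columns. The submitters' processing notes name TopHat2, HTSeq and GRCm38. The study's methods name another aligner (STAR), counter (featureCounts) and genome build (a GRCm39 release). That passage speaks of single-end reads, whereas the methods give paired-end reads for the stranded mRNA libraries, so it may not cover this table. Which annotation made the table was therefore not settled, and the strand setting is not given in the sources used here. A column was matched to a tumour where its library number occurs in the title of 1 sample only, which assumes that both numbers mean the same. This held for 10 tumours (04 to 13), and 9 columns were not used. Reads aligned to several places, which were not counted to genes, made up 45.4% to 57.9% of each library.

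Counts were scaled by TMM in edgeR 4.0.16 (R 4.3.3, limma 3.58.1). filterByExpr over the 10 tumours as 1 group asks for reads in every tumour and kept 12462 genes, 5 of the 7 members among them. Tag families were compared by the quasi-likelihood F-test of edgeR and by the likelihood ratio test of DESeq2 1.42.0, each adjusted over all genes. On simulated data with these depths and spreads, the edgeR test between 3 families recovered 17 of 100 genes changed 2-fold and 78 of 100 changed 4-fold among 12462. The changed genes were drawn at random from all that passed, whose median SD was 0.33. The 5 members had SDs from 0.80 to 0.97, so these shares do not give the power of the test for them. Correlations used permutation tests and levels per length exact sign flips, computed with numpy 2.4.6 and pandas 2.3.3 (Python 3.11.15). matplotlib 3.10.9 drew the plots. Symbols, exon unions and coding lengths were taken from GENCODE M39 by stable identifier (34199 of 39179 matched), and positions and promoters from RefSeq on GRCm38.p6. Totals count reads without molecular identifiers, so floors cover counting error only.

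The members, the other lists and the tests were chosen with earlier results of these data known. The genes named are the 7 members, in each other list the genes of largest and smallest SD and those at 0, and the 10 genes most and 5 least like the members. 1 gene first placed in these lists is not reported here and was left out of their counts. Further genes of the lists were named after their values were seen. Alternatives covered the scaling, filter, prior count, transformation, grouping, length, the Rpph1 split and each tumour left out.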

Additional observations from a re-analysis of the deposited data

Results flagged for a closer look

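In 31 measures over the 10 tumours (each member, the summed level of each other list, and ratios of genes within a tumour), 2 ends of 62 had a gap above the 95% critical value of Dixon's test for 10 samples. Chance flags about 1 group in 20. The ratio of H2-Aa to H2-Ab1 was lowest in tumour 05, at 0.623, where the gap to the next tumour was 0.589 of the whole range on the log2 scale. Tumour 05 also had the lowest mean log2 CPM of the macrophage, dendritic cell, B cell and T cell marker lists. The part of these in the ratio was not tested. The ratio of Ciita to H2-Ab1 was lowest in tumour 06, at 0.00696, with a gap of 0.517 of the range. This value rests on 3 counts of Ciita, and the sum of macrophage markers was highest in the same tumour, at 465 CPM.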

How the results depend on the processing

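No paired analysis was possible because only tumour libraries entered the comparisons, so that no second group shared their numbers. The number of genes called between families was 1 and became 508 with the likelihood ratio test of DESeq2, 27 with no filter on low counts, 53 with the 5 tags and 1188 with the 5 tags and no filter, a fit added after the data were seen that also called 1 member, Ciita. Leaving out 1 tumour gave 0 to 175 genes, with 175 without tumour 09 and 86 without tumour 04, and 0 members in each fit. The number of members with an SD above 1 was 1, became 2 with a prior count of 0.5 and 0 with the variance stabilising transformation, and was 1 to 3 with 1 tumour left out, reaching 3 without tumour 04, 06, 09, 12 or 13. Genes with an SD above 1 numbered 645, 2066 with no filter, 420 with the variance stabilising transformation, and 604 to 714 with 1 tumour left out. Correlated member pairs numbered 17, and 15 to 21 with 1 tumour left out. Of 28 relations with marker lists, 23 passed, 15 with values centred on tag families, 7 within the Rpph1 side, and 7 to 24 with 1 tumour left out, with 7 only without tumour 05. Steps in the order per length that differed numbered 6, and 5 to 6 with 1 tumour left out. With the coding length 4 steps passed, and a pair of steps turned round, that from H2-Eb1 down to H2-Aa (−0.086 in place of 0.80 on the log2 scale per kilobase) and that from H2-DMb1 down to H2-DMa (−0.72 in place of 0.65). No correlation of the report changed its sign under the alternatives run. For each change above the cause was not tested, other than the fewer or more genes and tumours that the alternative itself brings. Genes near the floor, Ciita, H2-DMb1 and the T cell and B cell markers, are limited by depth.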
